A study of Mus musculus with 12 samples.

Results

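Phase II conjugation enzymes attach glutathione, glucuronic acid or sulfate to drugs, bile pigments, steroids and reactive products of metabolism. The members described here are the 61 genes of 24296 gene symbols in the deposited table whose symbol follows the naming of the glutathione S-transferases (Gsta, Gstk, Gstm, Gsto, Gstp, Gstt, Gstz and Mgst), the UDP-glucuronosyltransferases (Ugt1, Ugt2 and Ugt3) or the cytosolic sulfotransferases (Sult1 to Sult5). They comprise 26 glutathione transferases, 19 glucuronosyltransferases and 16 sulfotransferases, and 2 of them, Gstm2-ps1 and Gstp-ps, carry the names of pseudogenes. Liver RNA of 12 mice (male C57/BL6N per the study's methods) was sequenced, with 3 livers in each of 4 groups. The labels number the samples within each group, and each sample was taken as a separate mouse. Control mice received no carbon tetrachloride (CCl4), a solvent that injures the liver and leads to fibrosis, and model mice received it over 8 weeks, diluted 1:9 (by volume) in olive oil, with 2 doses of 5 mL/kg of this mixture in each week. Silibinin mice and phloridzin high-dose mice had the same CCl4 course with the drug given from week 5. Silibinin is a flavonolignan of milk thistle that served as the positive control, and phloridzin is a plant glucoside known as an inhibitor of sodium-dependent glucose transporters. No group received a drug without CCl4, so a drug's own effect on these enzymes and its effect on the injured liver cannot be told apart.

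Conjugation makes a compound more soluble in water and readies it for export into bile or blood. Glutathione transferases act on electrophiles, among them the products of lipid peroxidation that CCl4 injury is known for, and several of the alpha and mu class are textbook targets of the transcription factor NRF2. Glucuronosyltransferases clear bilirubin, steroids and many drugs, while sulfotransferases act on phenols, estrogens, hydroxysteroids and bile acids.

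The values are FPKM per transcript (fragments divided by transcript length and by the number of mapped fragments), summed here over the transcripts of each gene. The step between the lowest values of long transcripts put the depth, in M (1e6) fragments, at 105.2 to 109.6 in the control livers, 83.7 to 101.5 in the model livers, 106.7 to 110.9 in the silibinin livers and 98.5 to 104.7 in the phloridzin livers. At these depths 1 fragment on a transcript of 1 kb corresponds to between 0.00902 and 0.0120 FPKM. Genes with a mean of at least 0.5 FPKM were tested with limma on log2(FPKM + 1), which left 13158 genes and 50 members, namely 24 glutathione transferases, 18 glucuronosyltransferases and 8 sulfotransferases. A gene passed with a Benjamini-Hochberg adjusted p under 0.05, and it was called differentially expressed when its log2 fold change was also above 1 or below -1. With 1 FPKM added before the logarithm, fold changes of genes at a few FPKM are smaller than the ratio of their levels. The 11 untested members were Gsto2, Mgst2, Ugt1a8 and 8 sulfotransferases, each with a mean below 0.5 FPKM.

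The tissue label was checked against 10 hepatocyte markers, all present. Albumin (Alb) was the most abundant of them, and the markers' summed level was 20498, 26103 and 20746 FPKM in the control livers, 17984, 26632 and 30240 in the model livers, 31339, 37870 and 22739 in the silibinin livers and 25345, 33443 and 26361 in the phloridzin livers. Since these are whole livers, fewer cells of a type and less RNA per cell cannot be told apart.

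Scaling moved many of the values, and the median log2 fold change of all 13158 genes was 0.34 for model against control, -0.15 for silibinin against model, -0.11 for phloridzin against model, 0.16 for silibinin against control, 0.18 for phloridzin against control and 0.03 for phloridzin against silibinin. Scaling each liver by the median of its ratios to the mean liver brought the first of these to -0.01. Under that scaling the differentially expressed genes of model against control went from 1240 higher and 142 lower (89.7% higher) to 490 higher and 480 lower (50.5% higher). The higher share went from 18.6% to 44.2% for silibinin against model, from 17.1% to 37.1% for phloridzin against model, from 87.7% to 71.4% for silibinin against control and from 90.5% to 73.7% for phloridzin against control.

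The first phloridzin liver stood apart from the other 11 and is named beside the results found to rest on it. In it 169 of 13158 genes were more than 2-fold above the highest of the other livers, against 5 to 30 genes in each of the others. Among those 169 genes were 8 members, Gsta1, Gsta2, Gsta4, Gstm1, Gstm2, Gstm2-ps1, Gstm3 and Gstm4, and no other liver had a member in that position. Of the 50 tested members, 22 (44.0%) had their highest value in this liver, as did 2571 of all 13158 genes (19.5%).

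Mgst1, the membrane-bound microsomal glutathione transferase, held 30.6% of the members' mean FPKM. Gstp1 of the pi class held 14.7%, Gstm1 of the mu class 9.45% and Gsta3 of the alpha class 7.29%. The place of Gstm1 above Gsta3 rested on the first phloridzin liver (2448 and 756.8 FPKM), and the order turned without it. The most abundant glucuronosyltransferases were Ugt2b5 with a mean of 299 FPKM and Ugt1a1 with 257. The lead of Ugt2b5 also rested on the first phloridzin liver (686.8 against 181.3 FPKM), and the means were alike without it. The most abundant sulfotransferases were Sult2a8 with 103 FPKM and Sult1d1 with 94.5. The 61 members together made up 1.54% to 2.21% of the FPKM of all gene symbols in 11 livers and 3.49% in the first phloridzin liver.

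As deposited, the sulfotransferases were the only family whose summed level separated the model livers from the rest. Their sum was 283.7, 316.0 and 270.8 FPKM in the control livers, 145.1, 146.0 and 181.7 in the model livers, 249.1, 339.2 and 247.0 in the silibinin livers and 250.6, 270.6 and 265.4 in the phloridzin livers. Every model liver was below every liver of the other 3 groups, and the silibinin and phloridzin livers reached into or near the control range as deposited. After median-ratio scaling the silibinin livers (239.5, 313.5 and 263.1) and the phloridzin livers (219.4, 270.1 and 267.3) were all below the control livers (324.6 to 362.0). The model mean was 54.3% of the control mean (39.1% after median-ratio scaling), the silibinin mean 96.0% (80.0% after scaling) and the phloridzin mean 90.4% (74.2% after scaling). After median-ratio scaling the glutathione transferase sums of the model livers (3019 to 3751) were also below those of the other 9 livers (3872 and above). No test was run on family sums.

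The glutathione transferases summed to 3940 ± 545 FPKM (SD, n = 3) in control, 4071 ± 406 in model, 4551 ± 287 in silibinin and 5861 ± 2938 in phloridzin livers. The phloridzin mean rested on its first liver, which had 9232 FPKM, 2.21 times the mean of the other 2 livers (4175). The model mean was 103.3% of control as deposited and 74.6% after median-ratio scaling, and the silibinin mean went from 115.5% to 97.4%, so the direction of both turned with the scaling. Glucuronosyltransferases summed to 1344 ± 262, 1184 ± 126, 1334 ± 219 and 1602 ± 469 FPKM (SD, n = 3) in the same order, and their groups overlapped as deposited. After median-ratio scaling the model livers (907.8 to 1115.9) were below the control livers (1396.1 to 1875.5) but overlapped with the silibinin livers. The model mean of this family was 88.1% of control as deposited and 63.6% after scaling, while the phloridzin mean turned from 119.2% to 96.7%. The phloridzin mean rested on its first liver (2052 FPKM) and was 1377 FPKM, or 102.5% of control, without it.

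**Figure D1:**
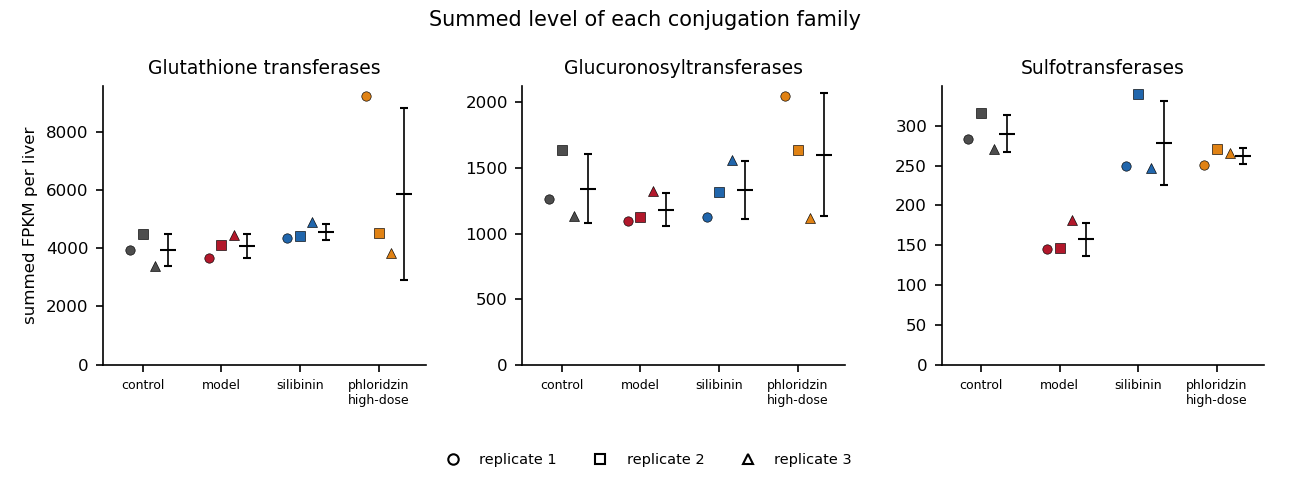
Summed FPKM of the 26 glutathione transferases, 19 glucuronosyltransferases and 16 sulfotransferases in each of the 12 livers (points, with the shape giving the replicate), with the group mean and SD (bars, n = 3). The 3 model livers lie lowest for the sulfotransferases, at 145.1 to 181.7 FPKM, and the first phloridzin liver lies at 9232 FPKM for the glutathione transferases; after median-ratio scaling the model mean of the glutathione transferases is below control (74.6%) and not above it (103.3%).

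Model against control asks what the CCl4 course does to these enzymes. Gsta1 was higher in the model livers, while Gstt3, Sult2a7 and Sult2a8 were lower, and these 4 were the members called differentially expressed. In all, 12 of 50 tested members passed, 4 higher and 8 lower. Of all tested genes, 31.1% passed as higher and 3.80% as lower. The differentially expressed members, 1 higher and 3 lower, stand beside 9.42% and 1.08% of all genes. At an unadjusted p under 0.05 there were 17 members (34.0%), where 45.8% of all genes were. By family, 2 of 24 glutathione transferases passed as higher and 3 as lower with a median log2 fold change of 0.34, the same as that of all genes (-0.07 after median-ratio scaling). Among 18 glucuronosyltransferases 2 passed as higher and 2 as lower (median -0.09, or -0.56 after scaling), and among 8 sulfotransferases none passed as higher and 3 as lower (median -0.58, or -0.95 after scaling). Median-ratio scaling gave 9 differentially expressed members, of which Gsta1 was the only higher one, and leaving out the first model liver gave 7.

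Silibinin against model asks what the positive-control drug does to livers on CCl4. Of 50 members, 6 passed as higher (Gstt3, Gstt2, Gstk1, Sult1a1, Sult2a8 and Sult5a1) and 1, Ugt2b37, as lower, beside 2.62% and 11.4% of all genes. Gstt3 alone was called differentially expressed, where 0.745% of all genes were called as higher. At an unadjusted p under 0.05 there were 13 members (26.0%), beside 29.2% of all genes. The family medians were 0.10 for the glutathione transferases, 0.00 for the glucuronosyltransferases and 0.75 for the sulfotransferases, beside -0.15 for all genes. After median-ratio scaling they were 0.31, 0.18 and 0.91, beside 0.01.

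Phloridzin against model asks the same of the study's own compound. Here 4 of 50 members passed as higher (Gstt3, Gstk1, Sult1a1 and Sult5a1) and none as lower by limma, beside 2.50% and 10.4% of all genes. Again Gstt3 was the member called differentially expressed, where 0.600% of all genes were called as higher. An unadjusted p under 0.05 was reached by 16 members (32.0%) and by 27.8% of all genes. The family medians were 0.43, 0.16 and 0.75 in the same order, and 0.14, 0.07 and 0.77 without phloridzin 1. After median-ratio scaling they were 0.59, 0.28 and 0.86, while that of all genes went from -0.11 to 0.03. Both drug comparisons use the same 3 model livers, which also enter model against control with the opposite sign, so their values are given side by side and no overlap between them is counted.

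**Figure D2:**
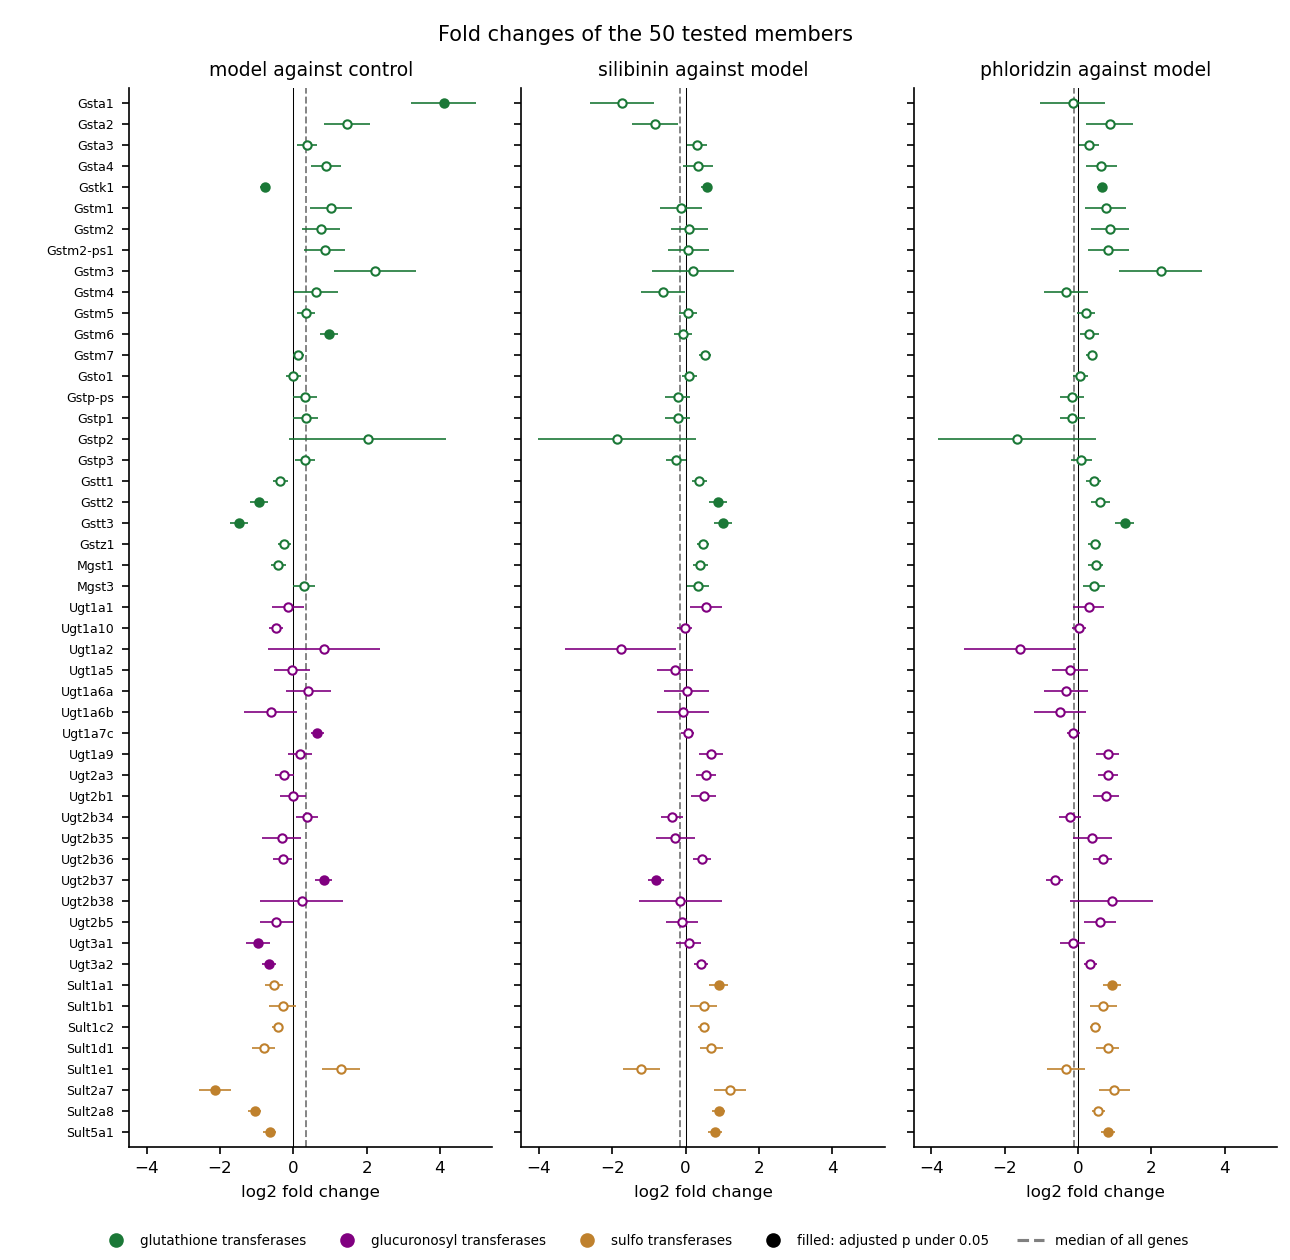
Log2 fold change (horizontal axis) of the 50 tested members in model against control, silibinin against model and phloridzin against model, with bars of 1 SE from limma, filled points for an adjusted p under 0.05 and a dashed line at the median of all 13158 genes. Gstt3 and the sulfotransferases other than Sult1e1 lie left of 0 in the first panel and right of it in the other panels; the alpha and mu class values near the dashed line, among them Gsta3 at 0.38, lie on either side of 0 depending on scaling (-0.09 after median-ratio scaling).

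Promoters of 6 named members are printed because they stand for the members that move together, Gstt3 and Sult2a8 for those lower in the model livers and Gsta1, Gsta2, Gstm1 and Gstm3 for those high in the first phloridzin liver. The windows run from 250 bases before to 50 bases after a start that RefSeq gives and come from RefSeq (GRCm38.p6), where 51 of the 61 members matched with 63 windows. They are chr10:75781365-75781664 (minus strand) for Gstt3, chr7:14446538-14446837 (minus) for Sult2a8, chr9:78230419-78230718 (plus) for Gsta1, chr9:78347096-78347395 (minus) for Gsta2, chr3:108017769-108018068 (minus) for Gstm1 and chr3:107969125-107969424 (minus) for Gstm3. The RefSeq start used for Gsta2 lies inside the span of that gene given below and not at its end. Capitals mark matches on either strand to TGACNNNGC, the core of the element bound by NRF2, or GCGTG, the core of the element bound by the aryl hydrocarbon receptor. For Gstm1, RefSeq also gives a start at the end of the gene's span, with the window chr3:108017924-108018223. From that start the GCGTG marked for Gstm1 lies at -76.
Gstt3: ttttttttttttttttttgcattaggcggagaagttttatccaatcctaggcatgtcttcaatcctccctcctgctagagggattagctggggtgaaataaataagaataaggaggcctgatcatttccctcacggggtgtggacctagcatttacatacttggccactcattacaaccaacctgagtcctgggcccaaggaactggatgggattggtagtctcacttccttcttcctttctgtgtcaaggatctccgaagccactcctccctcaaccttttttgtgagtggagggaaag
Sult2a8: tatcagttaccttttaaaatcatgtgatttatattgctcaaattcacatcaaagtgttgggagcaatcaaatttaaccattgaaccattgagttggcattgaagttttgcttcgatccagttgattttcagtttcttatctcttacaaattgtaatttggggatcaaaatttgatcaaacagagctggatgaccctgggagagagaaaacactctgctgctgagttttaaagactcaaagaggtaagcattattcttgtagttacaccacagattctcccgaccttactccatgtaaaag
Gsta1: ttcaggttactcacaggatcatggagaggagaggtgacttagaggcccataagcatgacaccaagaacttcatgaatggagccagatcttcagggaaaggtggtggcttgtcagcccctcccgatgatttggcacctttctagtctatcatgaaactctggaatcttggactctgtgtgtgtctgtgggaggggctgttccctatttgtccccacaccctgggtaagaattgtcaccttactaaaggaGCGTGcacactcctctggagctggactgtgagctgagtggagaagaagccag
Gsta2: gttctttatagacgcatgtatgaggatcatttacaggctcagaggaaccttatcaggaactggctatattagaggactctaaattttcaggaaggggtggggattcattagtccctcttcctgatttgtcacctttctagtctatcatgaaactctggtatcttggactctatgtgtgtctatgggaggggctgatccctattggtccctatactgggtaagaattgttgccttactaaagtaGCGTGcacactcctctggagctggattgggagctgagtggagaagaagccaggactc
Gstm1: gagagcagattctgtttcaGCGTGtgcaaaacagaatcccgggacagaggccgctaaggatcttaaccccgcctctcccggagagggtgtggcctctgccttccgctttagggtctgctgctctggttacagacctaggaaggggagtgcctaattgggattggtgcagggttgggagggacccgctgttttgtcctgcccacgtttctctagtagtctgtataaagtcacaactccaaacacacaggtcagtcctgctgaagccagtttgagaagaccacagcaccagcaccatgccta
Gstm3: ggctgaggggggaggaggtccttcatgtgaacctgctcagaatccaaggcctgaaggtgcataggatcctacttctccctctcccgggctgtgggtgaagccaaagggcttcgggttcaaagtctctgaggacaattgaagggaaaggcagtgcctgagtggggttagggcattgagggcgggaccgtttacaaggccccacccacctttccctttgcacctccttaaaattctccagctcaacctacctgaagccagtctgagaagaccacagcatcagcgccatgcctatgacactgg
GCGTG was present in the Gsta1 window with its first base at -2 from the start, in the Gsta2 window at -7 and in the Gstm1 window at -231. Of the 63 member windows 14 (22.2%) held GCGTG and 4 (6.35%) held TGACNNNGC, where 32.4% and 12.4% of all 32851 windows did. The TGACNNNGC matches included the windows of Gsta3, at -121, and Mgst1, at -56. A match is a string of letters and not a shown binding site, and its absence from a window of this length says nothing of the factor.

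Among the sulfotransferases, Sult2a8 was both abundant and lower in every model liver. This liver enzyme (chr7:14410686-14446769, minus strand) belongs to the subfamily that acts on hydroxysteroids and bile acids. It stood at 115.9, 133.0 and 150.5 FPKM in the control livers, 61.9, 68.7 and 59.96 in the model livers, 102.7, 134.7 and 122.1 in the silibinin livers and 119.7, 81.9 and 82.1 in the phloridzin livers. The model livers did not overlap with any other group, and phloridzin livers 2 and 3 lay between the model and control ranges. Of this FPKM 27.6% lay on transcripts that are not protein-coding, and in the sum of the coding ones phloridzin 2 and 3 (64.1 and 51.9) lay within the model range (43.4 to 66.3). Sult2a8 fell by 1.05 on the log2 scale in model against control (SE 0.18, adjusted p 0.0016), or by 1.39 relative to the median of all genes. With only protein-coding transcripts (-0.93, adjusted p 0.0052) or without control 3 (-0.96, adjusted p 0.0078) it passed but was under the fold change cutoff. It rose by 0.90 in silibinin against model (SE 0.18, adjusted p 0.0085), a call that ended with only protein-coding transcripts (0.55, adjusted p 0.090). In phloridzin against model its log2 fold change was 0.55 with an adjusted p of 0.070 (0.73 and 0.023 after median-ratio scaling).

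Its neighbour Sult2a7 (chr7:14465051-14494230, minus strand) had the lowest log2 fold change of all tested members in model against control, at a lower level. Its values were 6.20, 4.25 and 9.40 FPKM in the control livers, 0.860, 0.361 and 0.845 in the model livers, 4.43, 2.31 and 2.24 in the silibinin livers and 0.952, 1.72 and 5.87 in the phloridzin livers. The model livers again lay below all others, the first phloridzin liver just above them, and only 1 silibinin and 1 phloridzin liver reached the control range. The fall was 2.13 on the log2 scale (SE 0.43, adjusted p 0.0039), the model mean being 10.4% of the control mean. Against the model livers its log2 fold change was 1.21 for silibinin (adjusted p 0.085) and 0.99 for phloridzin (adjusted p 0.16), neither of which passed.

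Sult5a1, named after its values were seen, was scarce, with 2.31, 2.18 and 1.70 FPKM in the control livers, 0.805, 0.723 and 1.41 in the model livers, 2.36, 3.03 and 1.92 in the silibinin livers and 2.04, 2.88 and 2.49 in the phloridzin livers. Model livers were lower than all other livers. In 11 of the 12 livers most of this FPKM lay on transcripts annotated as retained introns or nonsense-mediated decay. The protein-coding transcripts alone had 0.193, 0.179 and 0.206 FPKM in the control livers and 0.216, 0.398 and 0.215 in the model livers, where the model livers were not lower. They had 0.0517, 0.201 and 0.274 FPKM in the silibinin livers and 0.183, 0.102 and 0.302 in the phloridzin livers. No drug-treated liver was above the model range there. For the sum of all transcripts the log2 fold change was -0.64 in model against control (SE 0.18, adjusted p 0.018), 0.80 in silibinin against model (SE 0.18, adjusted p 0.014) and 0.82 in phloridzin against model (SE 0.18, adjusted p 0.014). Leaving out control 1, control 2, model 1 or model 2 ended the call against control (adjusted p 0.054 to 0.065), model 2 or silibinin 2 the silibinin call (0.051 to 0.057) and model 2 or phloridzin 2 the phloridzin call (0.057 to 0.059). With the most abundant transcript the call against control ended (-0.61, adjusted p 0.067), and with the 2 groups alone the phloridzin call did (0.063).

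Sult1a1, the main phenol sulfotransferase, had 36.2, 28.8 and 31.0 FPKM in the control livers, 18.6, 24.9 and 22.6 in the model livers, 44.1, 39.8 and 41.4 in the silibinin livers and 26.0, 51.7 and 56.0 in the phloridzin livers. The silibinin livers were above all control and model livers, and the first phloridzin liver lay apart from the other 2, close to the model range. In model against control the log2 fold change of -0.52 did not pass (adjusted p 0.12), though it passed after median-ratio scaling (-0.98, adjusted p 0.030) and without phloridzin 1 (-0.52, adjusted p 0.012). Sult1a1 rose by 0.90 in silibinin against model (SE 0.25, adjusted p 0.035) and by 0.92 in phloridzin against model (SE 0.25, adjusted p 0.035; 1.26 and 0.00075 without phloridzin 1). The silibinin call ended without any 1 of the 3 model or 3 silibinin livers (adjusted p 0.062 to 0.11), and the phloridzin call without any 1 of the 3 model livers, silibinin 1, silibinin 2, phloridzin 2 or phloridzin 3 (adjusted p 0.050 to 0.13). Both calls also ended without a filter (0.057 and 0.056), with a replicate block (0.051 for each) and with the most abundant transcript (0.12 and 0.079), and the phloridzin call with the 2 groups alone (0.14).

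Of the other tested sulfotransferases none passed. Sult1d1, which acts on phenols and catecholamines, had 113.8, 136.9 and 74.3 FPKM in the control livers and 56.0, 43.2 and 86.7 in the model livers, with overlap and a log2 fold change of -0.81 (adjusted p 0.074; -1.3 and 0.013 after median-ratio scaling). Sult1e1, the estrogen sulfotransferase, had 1.24, 1.12 and 0.176 FPKM in control and 2.01, 4.06 and 4.44 in model livers, the only sulfotransferase with a positive log2 fold change there (1.3, adjusted p 0.069). Its silibinin values of 0.702, 2.17 and 0.234 FPKM gave a log2 fold change of -1.21 against model (adjusted p 0.14). The phloridzin livers had 1.10, 1.58 and 6.63 FPKM of Sult1e1, with phloridzin 3 above every model liver. With the 2 groups alone or without phloridzin 3, Sult1e1 was called differentially expressed in model against control. Sult1b1, which sulfates thyroid hormones and phenols, ranged from 2.63 to 8.50 FPKM over the 12 livers.

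**Figure D3:**
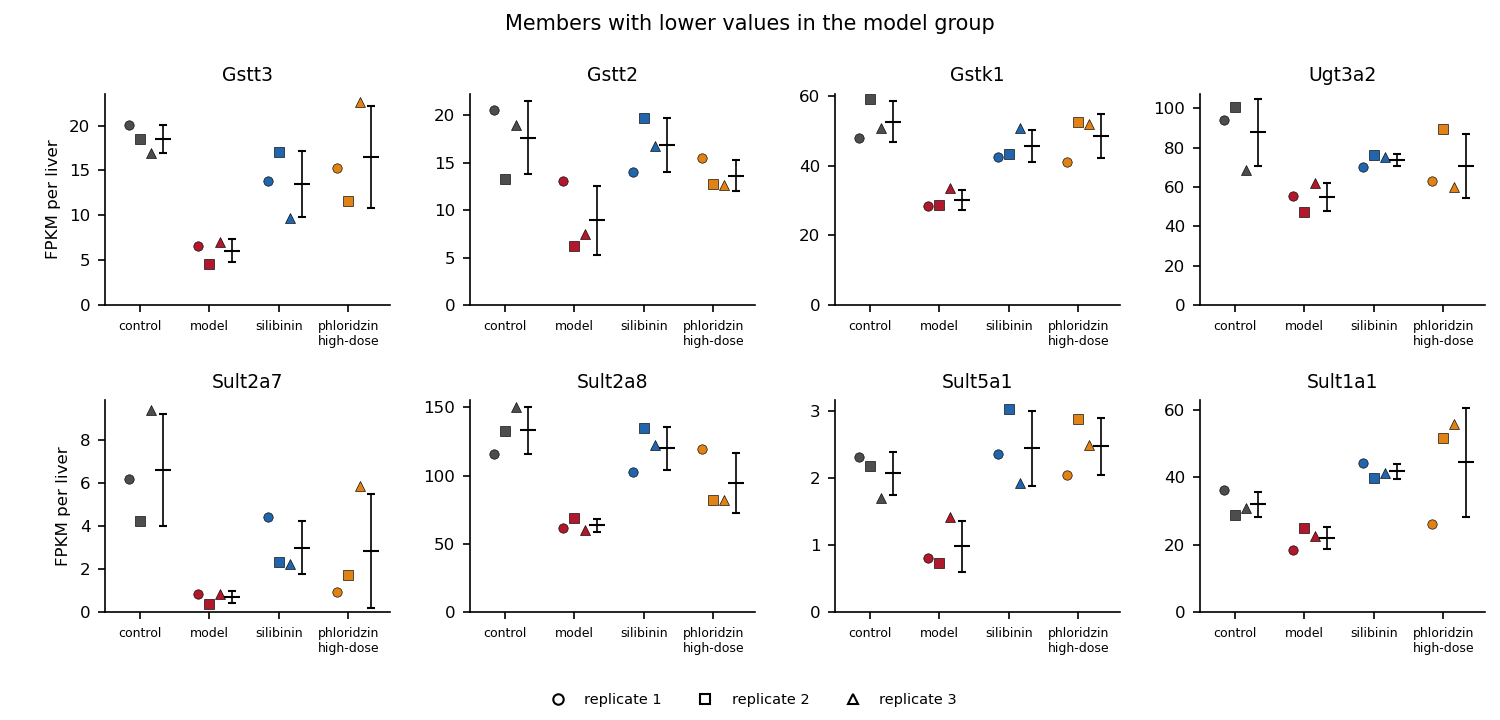
FPKM of 8 members in each of the 12 livers (points, with the shape giving the replicate), with the group mean and SD (bars, n = 3). The 3 model livers are the lowest 3 of the 12 for each of Gstt3, Gstk1, Sult2a7, Sult2a8, Sult5a1 and Sult1a1 as deposited, at 4.61 to 7.04 FPKM for Gstt3 and 59.96 to 68.7 FPKM for Sult2a8. With only protein-coding transcripts this does not hold for Sult5a1 or Sult2a8. The share of all genes with this order of livers was not counted.

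Gstt3 and Gstt2 of the theta class and Gstk1 of the kappa class passed as lower in model against control. Gstt3, a theta class enzyme (chr10:75774115-75781414, minus strand), had 20.1, 18.5 and 17.0 FPKM in the control livers, 6.61, 4.61 and 7.04 in the model livers, 13.8, 17.0 and 9.69 in the silibinin livers and 15.3, 11.6 and 22.7 in the phloridzin livers. All model livers were below all others, and both drug groups overlapped with control. Gstt3 fell by 1.48 on the log2 scale in model against control (SE 0.25, adjusted p 0.0017), to a mean of 32.9% of control, and by 1.81 relative to the median of all genes. It rose by 1.02 in silibinin against model (SE 0.25, adjusted p 0.023) and by 1.27 in phloridzin against model (SE 0.25, adjusted p 0.0093). The silibinin call ended without model 2, silibinin 1 or silibinin 2 (adjusted p 0.071 to 0.088), and the phloridzin call ended when the 2 groups were fitted alone (adjusted p 0.053).

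Gstk1 and Gstt2 were named after their values were seen. Gstk1, the kappa class enzyme of mitochondria and peroxisomes (chr6:42245935-42250447), had 47.9, 59.1 and 50.9 FPKM in the control livers, 28.5, 28.8 and 33.5 in the model livers, 42.4, 43.4 and 50.8 in the silibinin livers and 41.2, 52.6 and 51.8 in the phloridzin livers. Its model livers stood clear below every other liver. The log2 fold changes were -0.78 in model against control (SE 0.14, adjusted p 0.0023), 0.57 in silibinin against model (SE 0.14, adjusted p 0.022) and 0.66 in phloridzin against model (SE 0.14, adjusted p 0.013). Leaving out model 1, model 2 or silibinin 3 ended the silibinin call (adjusted p 0.069 to 0.083), and leaving out model 2 or phloridzin 2 ended the phloridzin call (0.052 to 0.057). The silibinin call also ended with the most abundant transcript (0.053) and the phloridzin call with the 2 groups alone (0.069).

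Gstt2, also of the theta class, had 20.6, 13.3 and 19.0 FPKM in the control livers, 13.0, 6.25 and 7.54 in the model livers, 14.1, 19.7 and 16.8 in the silibinin livers and 15.5, 12.8 and 12.6 in the phloridzin livers. The first model liver lay within the phloridzin range, just under the lowest control liver, and in its protein-coding transcripts alone model 1 (6.75) was above control 2 (6.65). Its fall in model against control was 0.94 on the log2 scale (SE 0.25, adjusted p 0.014) and its rise in silibinin against model was 0.89 (SE 0.25, adjusted p 0.037). The fall no longer passed without control 1 or model 2 (adjusted p 0.051 to 0.054), and the rise no longer passed without model 2, model 3 or any 1 of the 3 silibinin livers (0.054 to 0.13). Summing only the most abundant transcript, which holds 30.6% of the gene's FPKM, ended both calls (adjusted p 0.19 and 0.64), and the rise also ended with the 2 groups alone (0.081) and without a filter (0.060).

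Mgst1 (chr6:138140316-138156755), the most abundant member, had 2147, 2250 and 1633 FPKM in the control livers, 1409, 1415 and 1684 in the model livers, 2135, 1761 and 2072 in the silibinin livers and 2477, 1985 and 1849 in the phloridzin livers. The third model liver overlapped with the control range, and every drug-treated liver was above every model liver. None of its comparisons passed as deposited (-0.41 with adjusted p 0.16 in model against control), while median-ratio scaling gave -0.89 (adjusted p 0.013) there. Gstz1 of tyrosine breakdown, Gstt1 of the theta class and Gsto1 of the omega class did not pass as deposited, with means in model livers of 84.3%, 76.9% and 98.9% of control. After median-ratio scaling Gstz1 (-0.72, adjusted p 0.016) and Gstt1 (-0.82, adjusted p 0.010) passed.

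Of the alpha and mu class enzymes, Gsta1 and Gstm6 passed as higher in model against control and the others did not pass. Gsta1 (chr9:78230656-78242684, plus strand), an inducible alpha class enzyme whose product reduces lipid peroxides, was low in the control livers with 0.282, 1.72 and 0 FPKM. It had 16.8, 36.3 and 25.5 FPKM in the model livers, 5.49, 4.43 and 12.4 in the silibinin livers and 131.1, 9.76 and 8.04 in the phloridzin livers. All 9 livers on CCl4 were above all control livers, the silibinin livers and 2 of the 3 phloridzin livers lay below the model range, and the first phloridzin liver lay far above it. In its protein-coding transcript alone silibinin 3 (9.49) was above model 1 (8.77). Gsta1 rose by 4.10 on the log2 scale in model against control (SE 0.88, adjusted p 0.0054). In silibinin against model its log2 fold change was -1.74 (adjusted p 0.22), which passed when phloridzin 1 was left out of the shared estimate of spread (-1.74, adjusted p 0.026). In phloridzin against model it was -0.15 with all livers (adjusted p 0.93; 0.02 after median-ratio scaling) and -1.40 without phloridzin 1 (adjusted p 0.086). In windows of 100 bases, 19.8% of its main transcript was identical to its neighbour Gsta2. How fragments of such windows were divided between these genes was not tested.

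Gsta2 (chr9:78331018-78355788, minus strand), of the same class, had 1.07, 7.33 and 2.16 FPKM in the control livers, 11.3, 8.68 and 8.47 in the model livers, 1.78, 6.04 and 9.01 in the silibinin livers and 40.2, 15.0 and 9.28 in the phloridzin livers. Its model livers were above the control livers without passing (1.46, adjusted p 0.095). Gsta4 (chr9:78182774-78209349, plus strand), which conjugates 4-hydroxynonenal, a product of lipid peroxidation, had 14.2, 21.4 and 8.99 FPKM in control, 20.0, 34.0 and 28.8 in model, 27.1, 36.8 and 40.1 in silibinin and 81.4, 36.9 and 25.8 in phloridzin livers. Its control and model ranges overlapped, and it did not pass in model against control with all livers (0.90, adjusted p 0.11) and passed without phloridzin 1 (0.90, adjusted p 0.043). Gsta3 (chr1:21240589-21265661), the abundant alpha class enzyme known in mice for detoxifying aflatoxin, had 283.6, 381.0 and 304.7 FPKM in control, 409.5, 400.3 and 447.3 in model, 445.3, 581.2 and 541.6 in silibinin and 756.8, 557.2 and 328.9 in phloridzin livers. Its model livers were above its control livers as deposited, but the log2 fold change of 0.38 (adjusted p 0.29) turned to -0.09 after median-ratio scaling.

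In the mu class, Gstm6 (chr3:107938847-107943749, minus strand) passed in model against control. It had 9.78, 8.71 and 13.8 FPKM in the control livers, 19.8, 22.1 and 23.2 in the model livers, 15.3, 20.5 and 26.9 in the silibinin livers and 36.8, 26.9 and 20.1 in the phloridzin livers. The control livers were below all 9 others. Gstm6 rose by 0.97 on the log2 scale (SE 0.25, adjusted p 0.014). That call ended after median-ratio scaling (0.52, adjusted p 0.17), without control 2 (0.84, adjusted p 0.052) and with the most abundant transcript alone (1.78, adjusted p 0.070).

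Gstm1 (chr3:108012255-108017973, minus strand), the most abundant mu class enzyme, had 189.8, 310.8 and 231.6 FPKM in the control livers, 346.1, 626.9 and 538.7 in the model livers, 303.2, 504.9 and 597.2 in the silibinin livers and 2448, 484.9 and 472.1 in the phloridzin livers. Model livers lay above control livers, 2 phloridzin livers lay within the model range, and the first had 5.12 times their mean. The log2 fold change of 1.03 in model against control did not pass with all livers (adjusted p 0.18) and passed without phloridzin 1 (1.03, adjusted p 0.024). Gstm3 (chr3:107963696-107969283, minus strand), a mu class enzyme that was scarce in control livers, varied within each CCl4 group. Its levels were 5.11, 3.72 and 3.85 FPKM in control, 47.1, 4.98 and 47.99 in model, 17.6, 10.6 and 100.6 in silibinin and 563.8, 58.8 and 43.4 in phloridzin livers. The second model liver was within the control range while the other 2 were about 10 times higher, and no comparison with the model group passed (2.22 against control, adjusted p 0.15; 2.25 for phloridzin against model, adjusted p 0.22, and 1.09 without phloridzin 1).

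**Figure D4:**
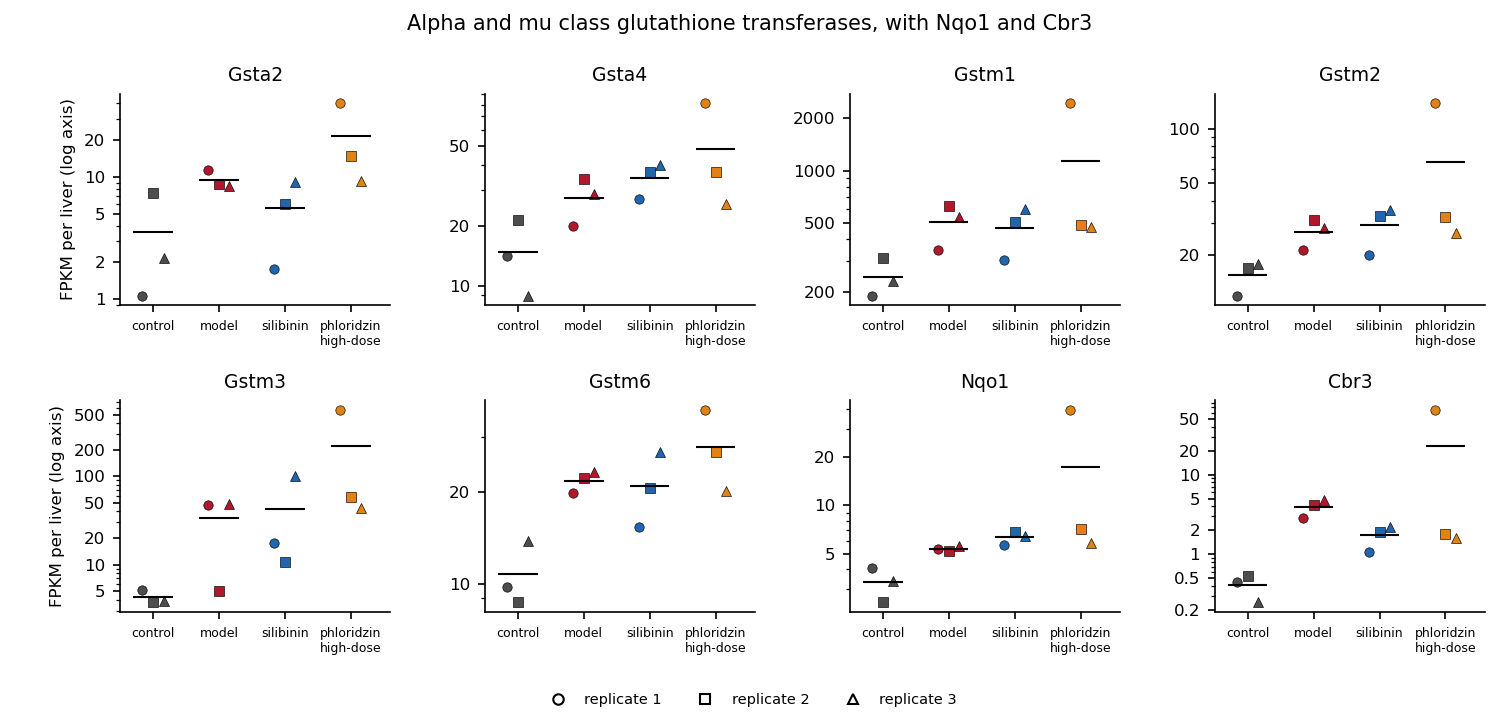
FPKM (log axis) of 6 alpha and mu class glutathione transferases and of Nqo1 and Cbr3 in each of the 12 livers (points, with the shape giving the replicate), with the group mean (line, n = 3). The first phloridzin liver is the highest of all 12 in each panel, at 2448 FPKM for Gstm1 and 39.3 FPKM for Nqo1, as deposited.

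The pattern of the first phloridzin liver was not limited to the families. Of 16 NRF2 targets outside them, 11 (68.8%) had their highest value there, beside 19.5% of all 13158 genes. Of the 169 genes more than 2-fold above every other liver, 8 were members and 4 were on this list of NRF2 targets. Nqo1, which reduces quinones, had 39.3 FPKM in that liver and 2.49 to 7.11 in the others, and Cbr3, a carbonyl reductase, had 64.7 against 0.250 to 4.86. Gclc, the catalytic subunit that starts glutathione synthesis, had 195.7 FPKM against 15.6 to 93.2. These 3 genes, with Gstm2, Gstm2-ps1 and Gstm4 among the members, were named after their values were seen. Hmox1, another NRF2 target, had 28.5 FPKM in this liver and 32.3 to 60.6 in the model livers. What set the liver apart was not tested.

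Against control, phloridzin livers showed 5 members as higher, all of them differentially expressed and all of the alpha or mu class, beside 7.51% of all genes that passed as higher and 2.74% that were called differentially expressed as higher. An unadjusted p under 0.05 was found for 16 members (32.0%) and 24.6% of all genes. The log2 fold changes of the 5 were 3.95 for Gsta1 (SE 0.88, adjusted p 0.025), 4.46 for Gstm3 (SE 1.12, adjusted p 0.038), 2.32 for Gsta2 (SE 0.63, adjusted p 0.049), 1.54 for Gsta4 (SE 0.41, adjusted p 0.045) and 1.3 for Gstm6 (SE 0.25, adjusted p 0.016). Without the first phloridzin liver, Gsta1 (2.70, adjusted p 0.023) and Gstm6 (1.07, adjusted p 0.046) passed, while Gstm3 (3.31, adjusted p 0.11), Gsta2 (1.76, adjusted p 0.15) and Gsta4 (1.08, adjusted p 0.12) did not. Median-ratio scaling likewise ended the calls of Gstm3, Gsta2 and Gsta4 (adjusted p 0.052, 0.079 and 0.083). All 5 calls ended with the 2 groups fitted alone (adjusted p 0.11 for Gsta1 and 0.068 for Gstm6), and all 5 also ended with the most abundant transcript alone (0.068 to 0.10). Those of Gsta1, Gsta2 and Gsta4 ended with only protein-coding transcripts (0.054 to 0.058), those of Gsta2, Gsta4 and Gstm3 without a filter (0.070 to 0.087), and those of Gsta2 and Gsta4 with a filter at 2 FPKM (0.054 to 0.057) and with a replicate block (0.065 to 0.077). Among single livers, the call of Gsta1 ended without control 1 or control 3 and that of Gstm6 without control 1 or control 2. Gstm3 was lost without any 1 of the 3 control livers, silibinin 1, phloridzin 1 or phloridzin 2. Gsta2 was lost without control 1, control 3, any 1 of the 3 model livers, silibinin 2, phloridzin 1 or phloridzin 2, and Gsta4 without any 1 of the 11 livers other than phloridzin 3. The count of differentially expressed members in either direction was 0 without control 1, 1 without control 3, 2 without control 2, phloridzin 1 or phloridzin 2, and 3 without model 3, silibinin 1 or silibinin 2. Leaving out phloridzin 3 gave 10, among them Ugt1a9 and, as the only lower one, Sult2a7. Over all tested genes the count was 398, with 210 without control 1 and 634 without phloridzin 3.

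Silibinin against control gave 1 member that passed, Gstm7 of the mu class, beside 4.59% of all genes as higher, and 0 differentially expressed members by limma, with 9 (18.0%) at an unadjusted p under 0.05, where 21.5% of all genes were. Of all 13158 genes, 229 were called differentially expressed as higher and 32 as lower. Gstm7, named after its values were seen, had 16.1, 17.8 and 17.3 FPKM in control, 16.9, 18.0 and 22.1 in model, 27.4, 30.6 and 25.3 in silibinin and 31.5, 20.7 and 23.0 in phloridzin livers. Its silibinin livers lay above every control and model liver. The log2 fold change was 0.67 (SE 0.16, adjusted p 0.043), and the call ended without any 1 of the 3 control livers, model 1, model 2, silibinin 1, silibinin 2 or phloridzin 3 (adjusted p 0.052 to 0.16). It also ended after median-ratio scaling (0.42, adjusted p 0.11), with other filters, with a replicate block, and with the most abundant or only the protein-coding transcripts.

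The direct comparison of phloridzin with silibinin found 0 of 50 members by limma, beside 3 genes in all (0.0228%), and 1 member (2.00%) at an unadjusted p under 0.05, beside 3.75% of all genes. That member was Gsta2, whose log2 fold change was 1.70 (p 0.021, adjusted p 1.0) and 1.14 without phloridzin 1. Log2 fold changes of the 50 members ran from -0.42 to 2.03. A p above the threshold does not show that the drugs act alike.

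Gstp1 (chr19:4035407-4037921, minus strand), the most abundant pi class enzyme, had 802.7, 909.2 and 666.6 FPKM in the control livers, 879.1, 1044 and 1070 in the model livers, 835.5, 873.1 and 846.2 in the silibinin livers and 1733, 709.7 and 575.8 in the phloridzin livers. Its groups overlapped, apart from silibinin livers that lay just under the model range, and phloridzin livers 2 and 3 were below all model livers. In phloridzin against model the log2 fold change was -0.16 with all livers (adjusted p 0.81; 0.03 after median-ratio scaling) and -0.64 without phloridzin 1 (adjusted p 0.046). Gstp1, Gstp2 and Gstp-ps shared 52.8%, 63.5% and 51.1% of their 100-base windows with each other, and Gstp2 was listed at 0.0494 FPKM in control 1, 0 in silibinin 1 and 0.0396 in phloridzin 3 but at 36.8 to 117.7 in the other 9 livers. How the fragments of these genes were divided was not tested.

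The 9 Ugt1a genes have their own first exons and share the last ones, and 35.1% to 69.2% of the 100-base windows of their main transcripts were found in other members. Together they had 395.8, 452.1 and 372.3 FPKM in the control livers, 379.8, 347.3 and 430.9 in the model livers, 438.5, 506.4 and 411.6 in the silibinin livers and 373.8, 449.4 and 397.3 in the phloridzin livers. These sums overlapped between all groups, while their split among the 9 genes varied within groups. Ugt1a1, the enzyme that conjugates bilirubin, had 198.1, 381.2 and 152.6 FPKM in control, 105.1, 253.5 and 318.8 in model, 328.0, 309.3 and 267.4 in silibinin and 181.3, 299.2 and 289.1 in phloridzin livers. Ugt1a2 was at 60.0 FPKM in the third control liver and 67.4 in the first model liver, and between 0.592 and 7.91 in the other 10. Ugt1a9, which conjugates phenols, had 33.5 to 45.0 FPKM in control, 40.2 to 49.98 in model, 53.97 to 88.8 in silibinin and 47.2 to 133.0 in phloridzin livers, and its log2 fold change of 0.69 in silibinin against model did not pass (adjusted p 0.18).

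**Figure D5:**
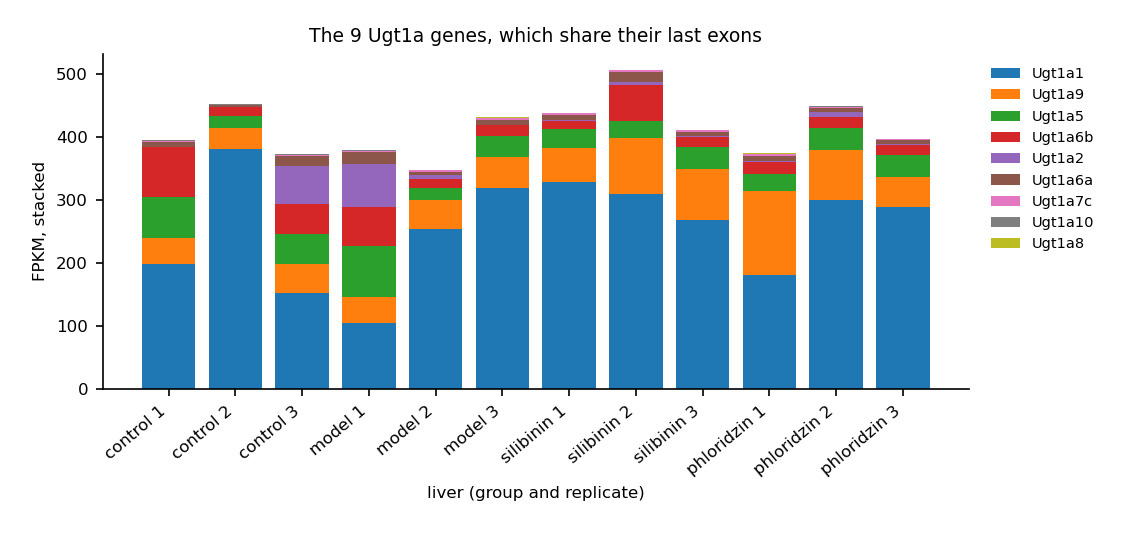
FPKM of the 9 Ugt1a genes stacked in each of the 12 livers, named by group and replicate. The height of the stack runs from 347.3 to 506.4 FPKM as deposited, while the share listed as Ugt1a1 or Ugt1a2 differs between livers of the same group.

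Ugt1a7c and Ugt2b37, named after their values were seen, were the glucuronosyltransferases that passed as higher in model livers. Ugt1a7c had 2.02, 1.33 and 0.909 FPKM in control and 2.80, 2.61 and 2.86 in model livers (log2 fold change 0.66, SE 0.18, adjusted p 0.019). With the most abundant transcript and with only protein-coding transcripts, Ugt1a7c was called differentially expressed in this comparison. It had 3.84, 2.43 and 2.64 FPKM in silibinin and 2.72, 2.42 and 2.15 in phloridzin livers, all above every control liver. Ugt2b37 had 0.758, 0.706 and 0.217 FPKM in control, 1.496, 2.055 and 1.68 in model, 0.322, 0.752 and 0.628 in silibinin and 1.49, 0.610 and 0.359 in phloridzin livers. The model livers were above all control livers for both genes, and above all silibinin livers for Ugt2b37. Ugt2b37 rose by 0.83 in model against control (SE 0.23, adjusted p 0.018) and fell by 0.81 in silibinin against model (SE 0.23, adjusted p 0.039). After median-ratio scaling neither gene passed in model against control (0.35 with adjusted p 0.17 for Ugt1a7c and 0.60 with 0.066 for Ugt2b37), nor Ugt2b37 in silibinin against model (-0.67, adjusted p 0.071). The rises also ended without control 2, control 3 or model 3 for Ugt1a7c (adjusted p 0.053 to 0.069) and without control 3 or model 2 for Ugt2b37 (0.061 to 0.068). The fall of Ugt2b37 ended without control 2, phloridzin 2 or any 1 of the 3 model and 3 silibinin livers (0.051 to 0.13), as well as at a pseudocount of 0.1 (0.079), without a filter (0.067), with a replicate block (0.050) and with the most abundant transcript (0.063).

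Ugt3a1 and Ugt3a2, which transfer sugars other than glucuronic acid, were the 2 that passed as lower in model livers. Ugt3a2 had 94.0, 100.7 and 68.7 FPKM in the control livers, 55.5, 47.6 and 61.9 in the model livers, 70.5, 76.1 and 75.3 in the silibinin livers and 63.2, 89.4 and 59.9 in the phloridzin livers. Its model livers were below all control and silibinin livers and overlapped with the phloridzin livers. Of this FPKM 91.8% lay on a transcript annotated as a retained intron, and the protein-coding transcripts had 3.52 to 11.4 FPKM over the 12 livers. The fall was 0.65 on the log2 scale (SE 0.19, adjusted p 0.022; 1.12 in size after median-ratio scaling), and it ended without control 1, control 2, model 1 or model 2 (adjusted p 0.050 to 0.080) and with only protein-coding transcripts (-0.49, adjusted p 0.39). Ugt3a2 was named after its values were seen. Ugt3a1 had 2.96, 6.40 and 4.94 FPKM in control and 3.69, 0.824 and 1.73 in model livers, with overlap between the groups and 63.8% of its FPKM on transcripts that are not protein-coding. Its log2 fold change of -0.97 (SE 0.33, adjusted p 0.044) no longer passed in 14 of 22 alternatives and was -0.06 with only protein-coding transcripts, and the call ended without control 2, control 3, model 2, model 3, any 1 of the 3 silibinin livers, phloridzin 2 or phloridzin 3 (adjusted p 0.051 to 0.15).

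The Ugt2b enzymes, which act on steroids and drugs, did not pass apart from Ugt2b37. Ugt2b5 had 299.4, 440.5 and 250.9 FPKM in the control livers, 222.7, 237.4 and 238.4 in the model livers, 149.7, 184.3 and 368.1 in the silibinin livers and 686.8, 309.7 and 201.0 in the phloridzin livers. Its model livers were just below the control range (log2 fold change -0.46, adjusted p 0.44), and the first phloridzin liver was again the highest. Ugt2b1 ranged from 94.4 to 275.5 FPKM and Ugt2b36 from 95.5 to 231.5 FPKM over the 12 livers. Ugt2b38 varied more, from 0.370 to 21.1 FPKM within the model group.

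Genes that supply the conjugating groups were read from lists written for the tissue. Every count of a list in model against control stands beside 31.1% of all genes that passed as higher and 3.80% that passed as lower. For the drugs against model these shares were 2.62% and 11.4% with silibinin and 2.50% and 10.4% with phloridzin. Of 12 tested genes of glutathione supply, 2 rose and 1 fell in model against control (median log2 fold change 0.13, all genes 0.34). Chac1, which degrades glutathione, rose by 1.38 (adjusted p 0.00031) and fell by 1.49 in silibinin against model and by 1.31 in phloridzin against model (adjusted p 0.00036 and 0.00084). Gss, the last enzyme of glutathione synthesis, rose by 1.12 (adjusted p 0.014), a call that ended after median-ratio scaling (0.66, adjusted p 0.11) and with the most abundant transcript alone. Glo1 of the glyoxalase pathway, the most abundant of the list, fell by 0.56 (adjusted p 0.019), which ended without control 2 or model 1 and with the most abundant transcript alone. No other gene of this list passed in either drug comparison.

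Among 7 genes that make or return UDP-glucuronate, 2 rose and 1 fell in the model livers (median 0.59). Pgm1 rose by 1.59 (adjusted p 0.00023) and fell by 1.20 with silibinin and 1.07 with phloridzin against model (adjusted p 0.0021 and 0.0043), and Pgm2, the more abundant phosphoglucomutase, fell by 0.42 (adjusted p 0.011) and rose by 0.52 with each drug (adjusted p 0.0086 and 0.0093; the phloridzin call ended with the 2 groups alone, adjusted p 0.079). Gusb, the lysosomal glucuronidase, rose by 0.59 (adjusted p 0.013). That call ended after median-ratio scaling (0.14, adjusted p 0.47), with the most abundant transcript (0.19, adjusted p 0.57) and with only protein-coding transcripts (0.25, adjusted p 0.39). Ugp2, the most abundant, did not pass (0.56, adjusted p 0.31), nor did Ugdh, the enzyme that makes UDP-glucuronate (-1.49, adjusted p 0.20). Of 9 tested genes of sulfate supply, Slc26a2, a sulfate transporter, rose by 0.82 (adjusted p 0.00064) and Suox, which makes sulfate from sulfite, fell by 1.03 (adjusted p 0.049; the call ended in 13 of 22 alternatives, among them those without any 1 of the 3 control or 3 silibinin livers, model 1, model 2 or phloridzin 1), with a list median of 0.44. Slc26a2 fell by 0.55 with silibinin and by 0.65 with phloridzin against model (adjusted p 0.011 and 0.0057), and both calls ended with the 2 groups alone (adjusted p 0.052 and 0.058).

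Of 20 conjugating and hydrolysing enzymes outside the 3 families, 3 rose and 3 fell in the model livers (median -0.48). The falls were those of Nat1, an arylamine acetyltransferase (0.87 on the log2 scale, adjusted p 0.0011), As3mt, the arsenic methyltransferase (0.70, adjusted p 0.0024), and Ephx2, the soluble epoxide hydrolase (0.63, adjusted p 0.026; ended without control 2, model 1 or model 2). The rises of the methyltransferases Hnmt, Inmt and Tpmt had adjusted p between 0.023 and 0.049 and ended after median-ratio scaling and without any 1 of 8, 4 and 10 livers. In silibinin against model 4 of the 20 rose (Ces1d, Ephx2, Nat1 and Nat2), and in phloridzin against model 2 rose (Nat1 and Nat8), with none lower. The rise of Ephx2 ended without model 1, model 2 or any 1 of the 3 silibinin livers (adjusted p 0.068 to 0.10) and without a filter. Nat1 rose by 0.84 and 0.80 in these comparisons (adjusted p 0.0031 and 0.0041). The carboxylesterase Ces1c, the most abundant gene of the list, did not pass.

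Of 9 transporters that export conjugates or take up their precursors, 2 rose and 2 fell in the model livers (median -0.04). Abcc4, which exports conjugates into blood, had 1.49, 1.13 and 0.852 FPKM in the control livers, 12.9, 12.7 and 10.7 in the model livers, 1.57, 1.87 and 2.33 in the silibinin livers and 6.57, 2.38 and 2.67 in the phloridzin livers. The model livers were above all others, and the first phloridzin liver was the next highest. Abcc4 rose by 2.61 (adjusted p 0.00015) and fell by 2.17 with silibinin and by 1.52 with phloridzin against model (adjusted p 0.0007 and 0.0054), the phloridzin call ending with the 2 groups alone (adjusted p 0.052). Abcb1a rose by 0.96 (adjusted p 0.0011), Slco1b2, the most abundant, fell by 0.69 (adjusted p 0.011) and Abcc3 fell by 0.80 (adjusted p 0.021; the call ended without control 1, control 2, model 1 or model 2). Abcc3 rose by 0.92 in phloridzin against model (adjusted p 0.026), which ended without model 1, model 2, phloridzin 1 or phloridzin 2, with the 2 groups alone (0.069), with a replicate block (0.050) and with the most abundant transcript (0.17). Abcc2, the exporter into bile, had a log2 fold change of 0.15 (adjusted p 0.66).

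Among 18 regulators, 3 (16.7%) rose and 1 fell in the model livers (median 0.30), the rises being a smaller share than among all genes (31.1%). Maff, a small Maf protein that pairs with NRF2, had 1.04, 1.10 and 0.437 FPKM in the control livers, 7.28, 12.4 and 10.6 in the model livers and 0.810 to 1.05 in the 6 drug-treated livers. The model livers were therefore the only high ones, and Maff rose by 2.57 (adjusted p 2.2e-05) and fell by 2.50 and 2.49 with silibinin and phloridzin against model (adjusted p 4.3e-05 and 4e-05). Rxra, the partner of several nuclear receptors, fell by 0.58 (adjusted p 0.0065) and rose by 0.44 in silibinin against model (adjusted p 0.045; ended without any 1 of 10 livers), and the rises of Ahr (0.65) and Arnt (0.93) ended after median-ratio scaling. Nfe2l2, the gene of NRF2, had a log2 fold change of 0.86 (adjusted p 0.23), and Hnf4a, the most abundant regulator, one of 0.03. Of 16 NRF2 targets outside the families 4 (25.0%) rose and none fell in the model livers by limma, where 31.1% of all tested genes rose, and the median was 1.06. Slc7a11, the cystine transporter, rose by 2.90 (adjusted p 4.2e-06), Hmox1, a heme oxygenase, by 1.84 (adjusted p 0.0014), Akr1b3, an aldose reductase, by 1.35 (adjusted p 0.013) and G6pdx, of the pentose phosphate pathway, by 0.99 (adjusted p 0.010; ended after median-ratio scaling). Txnrd1, the most abundant of them, did not pass (0.80, adjusted p 0.13). Slc7a11 fell by 2.76 with silibinin and by 2.74 with phloridzin against model, and Hmox1 fell by 1.36 with silibinin (adjusted p 0.015), which ended without model 2, silibinin 1 or silibinin 2.

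Several sulfotransferases are known to differ between the sexes in mouse liver, so male-biased and female-biased liver genes were read beside them. Of 14 tested male-biased genes, 1 of them the member Ugt2b38, none rose and 10 fell in the model livers by limma (median -1.01), among them Cyp7b1 (by 2.71, adjusted p 0.0020), Cyp4a12b (by 1.03, adjusted p 0.012) and Cyp2u1 (by 0.85, adjusted p 0.0031). Mup20, the most abundant, fell by 0.83 (adjusted p 0.037), a call that ended without any 1 of the 3 control livers, model 2, model 3 or silibinin 2. It also ended without a filter (adjusted p 0.18) and with a replicate block (0.062). Of the other falls, that of C6 ended without model 3, Cyp4a12a without control 2 or model 1, Elovl3 without control 2 or control 3, Mup21 without control 2, control 3 or model 3, and C8a without any 1 of 8 livers (the 3 control and 3 model livers, silibinin 1 and phloridzin 3). In silibinin against model 0 of the 14 passed by limma, and in phloridzin against model Cyp4a12b (1.40, adjusted p 0.0068) and Mup20 (0.93, adjusted p 0.048; ended in 15 of 22 alternatives) rose. The 10 tested female-biased genes, 1 of them the member Sult1e1, had a median of 0.00 in model against control. Among them Cyp2a4 rose by 3.38 (adjusted p 0.0014) and Cyp2c69 fell by 1.92 (adjusted p 0.0066). Cyp2a4 fell by 1.89 with silibinin (adjusted p 0.046; ended in 14 of 22 alternatives) and by 2.08 with phloridzin against model (adjusted p 0.034; ended without model 1, model 3, phloridzin 2 or phloridzin 3). The phloridzin call of Cyp2a4 also ended without a filter (adjusted p 0.062), with the 2 groups alone (0.13) and with the most abundant transcript (0.055). In phloridzin against silibinin 0 genes of any list passed by limma. The female-biased sulfotransferases Sult2a1, Sult2a2 and Sult3a1 stayed at or below 0.244 FPKM in every liver.

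Markers of other cells and of zones of the liver moved with the groups as well. Of 10 markers of pericentral hepatocytes, the cells around the central vein that activate CCl4 through Cyp2e1, 6 fell and none rose in the model livers by limma (median -0.79). Of these falls, that of Cyp2e1 ended with the most abundant transcript alone (-1.07, adjusted p 0.60) and that of Rhbg without control 1, model 2 or model 3. Their summed level was 5053, 2462 and 4612 FPKM in the control livers, 800.8, 842.9 and 925.4 in the model livers, 2049, 1253 and 1571 in the silibinin livers and 1316, 894.7 and 935.3 in the phloridzin livers, with Cyp2e1 the most abundant. Glul, the glutamine synthetase of the innermost layer, had 451, 300 and 383 FPKM in control, 31.1, 34.1 and 36.4 in model, 53.7, 73.4 and 57.1 in silibinin and 52.9, 78.0 and 55.5 in phloridzin livers. None of the 9 livers on CCl4 reached the control range for Glul, which fell by 3.43 in model against control (adjusted p 4.4e-06). Against model it had log2 fold changes of 0.83 with silibinin (adjusted p 0.020) and 0.84 with phloridzin (adjusted p 0.021), calls that ended without model 1 or model 2, the first also without silibinin 2 and the other without phloridzin 2. Of the 10 markers 3 rose with silibinin and 5 with phloridzin against model, and none fell. The phloridzin calls of Glul, Lgr5, Oat and Rhbg ended with the 2 groups alone. Those of Lgr5, Oat and Rhbg also ended without model 2, model 3 or phloridzin 2, that of Oat also without model 1, those of Lgr5 and Oat without phloridzin 3 and that of Rhbg without phloridzin 1. Slc1a2 was the defining marker closest to 0, with 0.0085 to 0.306 FPKM in the model livers.

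Of 8 periportal markers 1 rose (Hsd17b13, ended after median-ratio scaling or without control 1, control 3, model 2 or model 3) and 1 fell (Hal, ended without control 2 or model 1) in the model livers, and of the 10 hepatocyte markers Cyp2e1 and Tdo2 fell. Stellate cell and myofibroblast markers rose in 8 of 10 cases with none lower, led by Col1a1 (4.35) and Col3a1 (3.75). The calls of Dcn, Des and Reln ended after median-ratio scaling, and that of Col1a2 with only protein-coding transcripts or without control 2, control 3 or model 1. Leaving out any 1 of 9 livers also ended the call of Dcn. The summed level of these markers went from 92.4, 82.7 and 95.9 FPKM in the control livers to 262.8, 257.8 and 304.2 in the model livers, 265.0, 310.4 and 146.7 in the silibinin livers and 357.0, 220.6 and 190.8 in the phloridzin livers, Dcn being the most abundant. Macrophage markers rose in 5 of 8 cases with none lower, where 31.1% of all genes rose, among them Gpnmb (4.73) and Lyz2 (2.16, the most abundant), while the calls of Adgre1 and Csf1r ended after median-ratio scaling and without control 1, control 3, model 2 or model 3. Trem2 ended with the most abundant transcript alone. The macrophage markers summed to 83.0, 142.4 and 137.0 FPKM in control, 287.1, 438.1 and 421.0 in model, 371.2, 459.7 and 281.6 in silibinin and 532.2, 467.1 and 251.6 in phloridzin livers. Of 3 tested cholangiocyte markers Krt19 (ended after median-ratio scaling or without control 1, control 2, model 2 or model 3) and Spp1 rose, and no endothelial (6), lymphocyte (3) or erythrocyte (4) marker passed in model against control by limma. The part of these shifts in the values of the conjugation enzymes was not tested.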

How the data were processed

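The FPKM values of 12 mouse livers were deposited by the authors, 1 value per transcript and liver. Per the submitters' processing notes, they used bcl2fastq, FastQC 0.11.5, HISAT2 2.1.0, StringTie 1.3.3b and DESeq 1.28.0 on the mouse genome build mm10. The unit was read from the values, since the planned test allowed for counts. FPKM were summed per gene symbol and liver. Members were found by a rule on the gene symbol, and their coordinates come from the GRCm38 annotation. The members and the lists of suppliers, transporters, regulators, sex-biased genes and cell markers were chosen with earlier results of these data known.

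Genes with a mean of at least 0.5 FPKM were fitted with limma 3.58.1 (R 4.3.3, trend on the mean) on log2(FPKM + 1) in 1 model of 4 groups. Adjusted p are Benjamini-Hochberg values within each comparison. Tables and figures used Python 3.11.15 with numpy 2.4.6, pandas 2.3.3 and matplotlib 3.10.9. The fit was also run on simulated data, from which no result is given here. Alternatives tried were other pseudocounts, filters, scaling, transcripts, groups fitted, a replicate block, eBayes without a trend, other cutoffs and leaving out each liver.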

Additional observations from a re-analysis of the deposited data

How the results depend on the processing

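With 3 livers per group and values already scaled by the authors, small changes may have been missed and a shift of total RNA cannot be told from one of scaling. Each setting was changed alone. Of 29 values of members that passed, 24 no longer passed in at least 1 alternative and none changed sign. Using only protein-coding transcripts was chosen after seeing the data, and using only Ensembl rows gives the same values by construction. Correlations over 18 pairs of livers with the same number ran from -0.09 to 0.10, so the numbers do not pair livers, and a replicate block left 3 differentially expressed members in phloridzin against control where 5 were called without it. Where a value moved, the cause was not tested.

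Model against control had 4 differentially expressed members, with 8 at a pseudocount of 0.1, 9 after median-ratio scaling, 12 without a fold change cutoff and 4 to 7 when 1 liver was left out (4 without model 2, 7 without model 1). Over all tested genes the count was 1382, with 2596 at a pseudocount of 0.1 and 970 after median-ratio scaling. It was 4594 without a fold change cutoff and 1242 to 1462 with 1 liver left out. Silibinin against model had 1 member, with 3 at a pseudocount of 0.1, 4 after median-ratio scaling, 3 with the 2 groups alone, 0 with the most abundant transcript, 7 without a fold change cutoff, 3 at an unadjusted p and 0 to 2 with 1 liver left out (0 without model 2 or silibinin 2). All tested genes gave 526, with 764 at a pseudocount of 0.1, 425 after median-ratio scaling and 526 with the 2 groups alone. They gave 425 with the most abundant transcript, 1849 without a fold change cutoff and 422 to 565 with 1 liver left out. Phloridzin against model had 1 member, with 2 at a pseudocount of 0.1, 2 after median-ratio scaling, 0 with the 2 groups alone, 4 without a fold change cutoff and 1 to 2 with 1 liver left out (2 without phloridzin 1 or 3). For all tested genes these counts were 463, with 702 at a pseudocount of 0.1, 377 after median-ratio scaling and 350 with the 2 groups alone. They were 1691 without a fold change cutoff and 368 to 641 with 1 liver left out. Phloridzin against silibinin had 0 members, with 1 at an unadjusted p. Silibinin against control had 0 members, with 1 each at a pseudocount of 0.1, with the 2 groups alone, with the most abundant transcript, with only protein-coding transcripts and without a fold change cutoff, 2 at an unadjusted p and 0 to 2 with 1 liver left out (2 without phloridzin 1). All tested genes had 261, with 828 at a pseudocount of 0.1, 339 with the 2 groups alone and 117 with the most abundant transcript. They had 199 with only protein-coding transcripts, 661 without a fold change cutoff and 102 to 399 with 1 liver left out. Phloridzin against control had 5 members, with 2 without a filter, 3 at a mean of at least 2 FPKM, 3 after median-ratio scaling (with Ugt3a1, lower, among them), 0 with the 2 groups alone, 1 with the most abundant transcript (Ugt1a7c, not among the 5), 3 with only protein-coding transcripts (with Ugt1a7c among them), 10 at an unadjusted p and 0 to 10 with 1 liver left out (0 without control 1, 10 without phloridzin 3). Here all tested genes gave 398, with 278 without a filter, 303 at a mean of at least 2 FPKM and 243 after median-ratio scaling. They gave 143 with the 2 groups alone, 190 with the most abundant transcript and 314 with only protein-coding transcripts. With 1 liver left out they gave 210 (without control 1) to 634 (without phloridzin 3).

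After median-ratio scaling the family sums, as a percentage of control, were 74.6% (model) and 97.4% (silibinin) for glutathione transferases, 63.6% (model) for glucuronosyltransferases and 39.1% (model) and 74.2% (phloridzin) for sulfotransferases.

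All log2 fold changes that changed sign belonged to values that had not passed, and those of members whose FPKM the report prints are listed here. With median-ratio scaling these were, in model against control, Gsta3 (-0.09), Gstm7 (-0.31), Gstp1 (-0.14), Ugt1a9 (-0.29) and Ugt2b38 (-0.02), in silibinin against model, Gstm1 (0.10), Gstm6 (0.13) and Ugt2b5 (0.12), and in phloridzin against model, Gsta1 (0.02) and Gstp1 (0.03). Gstp-ps went from 0.33 to -0.14 in model against control and from -0.17 to 0.02 in phloridzin against model. Gsta1 was at 0.25 in phloridzin against model with the most abundant transcript and also 0.25 with only protein-coding transcripts. Ugt2b38 was at 0.07 in silibinin against model at a pseudocount of 0.1, and Ugt3a1 at -0.20 there with only protein-coding transcripts and at 0.11 in phloridzin against model with the most abundant transcript.

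Leaving out 1 liver at a time gave, in model against control, Ugt1a1 -0.47 to 0.33, Ugt1a2 -0.56 to 2.57, Ugt2b1 -0.17 to 0.33 and Ugt2b38 -1.08 to 0.93. In silibinin against model it gave Gstm1 -0.37 to 0.17, Gstm3 -0.80 to 0.85, Gstm6 -0.27 to 0.11, Gstp2 -2.89 to 0.12, Ugt1a7c -0.09 to 0.16, Ugt2b38 -0.85 to 1.15, Ugt2b5 -0.48 to 0.16 and Ugt3a1 -0.24 to 0.44. In phloridzin against model it gave Gsta1 -1.40 to 0.54, Gstm1 -0.03 to 1.15, Gstp1 -0.64 to 0.16, Gstp2 -3.01 to 0.40, Sult1e1 -0.91 to 0.02, Ugt1a1 -0.18 to 0.61 and Ugt3a1 -0.47 to 0.21.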
